A study of Mus musculus with 12 samples.

Results

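The macrophages described here are cells of the stromal vascular fraction (SVF) of mouse white adipose tissue that held Ear2 or Ccr2 transcripts and lacked those of perivascular and lipid-associated macrophages. They were selected on raw UMI counts, where a UMI is 1 counted RNA molecule. A cell had to hold between 700 and 22000 UMIs from between 200 and 6000 genes, with under 25% of UMIs mitochondrial, at least 1 UMI of Adgre1 or Csf1r, and at least 2 UMIs of Ear2 and Ccr2 together. It could hold no UMI of Lyve1, Cd163 or Trem2, of Ly6c2 and Flt3, of the cycling genes Mki67 and Top2a, or of Pdgfra. Of 126095 kept cells in 12 libraries, 2357 met the rule (1.87%), of which 1272 came from epididymal (eWAT) and 1085 from inguinal (iWAT) white adipose tissue. They are called Ear2/Ccr2 macrophages below.

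Adipose macrophages are replenished in part by blood monocytes, which enter tissue through the chemokine receptor Ccr2, while Ear2, an eosinophil-associated ribonuclease, is known from patrolling monocytes and macrophages that derive from monocytes. Perivascular macrophages line vessels and carry the scavenger receptors Lyve1 and Cd163, and lipid-associated macrophages, which gather around dying adipocytes in obesity, carry the lipid receptor Trem2. Rosiglitazone (Rosi) is an agonist of PPARγ, the nuclear receptor that governs adipocyte differentiation and lipid handling and that macrophages also express.

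Each depot has 2 libraries per label. WT-Veh stands for C57BL/6J mice on vehicle (methylcellulose in medium), ob/ob-Veh for Lepob/Lepob mice on the same vehicle, and ob/ob-Rosi for Lepob/Lepob mice on Rosi at 30 mg/kg, all male, aged 12 weeks and gavaged for 3 days. Lepob/Lepob mice lack functional leptin in every cell from birth, so they stand for obesity without leptin. Every library was made on the 10x Genomics droplet platform, and the 12 libraries each held 64 to 372 Ear2/Ccr2 macrophages with 151775 to 2212278 UMIs in all. The adipocyte transcript Lep, which the mutation leaves in place and whose RNA reaches the droplets as free RNA, stood at 28.0 and 42.5 UMIs per 100 Adipoq UMIs under the eWAT label WT-Veh, at 3.96 and 16.2 under ob/ob-Veh and at 240.0 and 390.1 under ob/ob-Rosi. In iWAT the label ob/ob-Rosi again held the most (164 and 141, against 15.1 to 36.4 elsewhere). As background, fat of ob/ob mice without drug is rich in Lep RNA, so the eWAT ob/ob-Veh values go against their label, on 7 and 43 Lep UMIs. In iWAT the ob/ob-Veh libraries (36.4 and 15.1, on 4 and 8 Lep UMIs) lay on both sides of the WT-Veh pair (20.1 and 31.6), so Lep does not separate those labels there. The text therefore speaks of libraries labelled WT-Veh, ob/ob-Veh or ob/ob-Rosi, and every direction is that of the labels. Values for a gene are given for replicates 1 and 2 of WT-Veh, then of ob/ob-Veh, then of ob/ob-Rosi. No pair of libraries shared more than 99 cell barcodes (1.05%).

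Of the cells that met every other condition, 1042 held 1 UMI of the pair and fell outside, 457 held 2 and 319 held 3. Among the cells inside, 1328 (56.3%) held both transcripts, 762 (32.3%) held Ccr2 alone and 267 (11.3%) held Ear2 alone. Ear2 lies on chromosome 14 from 44102654 to 44103534 and Ccr2 on chromosome 9 from 124101950 to 124113557 (GRCm38, forward strand). The close copies Ear1, Ear6 and Ear10 held 0 UMIs in all 2357 cells, and reads that match several copies equally are not counted by such pipelines.

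The cells carried more of the antigen-presentation genes than the other macrophages beside them. All values in this paragraph are descriptions, since the classes were cut by rule and a class against another is no test. Levels are in CPM, the UMIs of a gene scaled to 1 common total for every class and library. Against 9420 macrophages with at least 2 UMIs of Lyve1 and Cd163 and none of Trem2 (Lyve1/Cd163 macrophages), 8 of 9 MHC class II genes were higher in each of 12 libraries. Of all 5908 genes with a mean of 20 CPM or more over both classes, 8.5% were higher and 12.0% lower in every library, and of the 8 class II genes at that level 8 were higher. The mean level of H2-Ab1, a class II chain, was 6514 against 2066 CPM, that of the invariant chain Cd74 14798 against 6630.1, and that of Ciita, the class II transactivator, 108 against 27.1. Against 8865 Trem2 macrophages (at least 2 Trem2 UMIs, none of Lyve1 and Cd163) 8 of 9 were again higher, in all 10 libraries with 20 or more of those cells, where 10.8% of all genes at that level were. Dendritic cells also carry class II genes and Ccr2, and the 16 dendritic cell genes outside the rule summed to 604 to 1684 CPM in the Ear2/Ccr2 macrophages and 121 to 612 in the Lyve1/Cd163 macrophages, higher in the former in 12 of 12 libraries. Of the 16 genes, 2 were higher and 1 lower in every library. The part of dendritic cells in the class II levels was not tested.

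**Figure D1:**
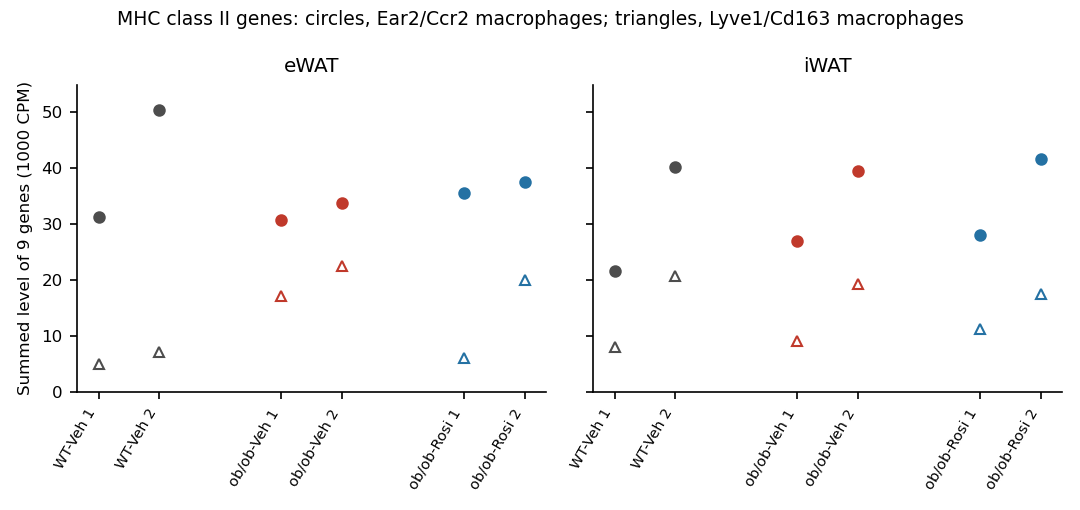
Summed level of 9 MHC class II genes (vertical axis, CPM divided by 1000) in the Ear2/Ccr2 macrophages (filled circles) and the Lyve1/Cd163 macrophages (open triangles) of each library, by depot, with each pair of marks being 1 library. The circles lie above the triangles in all 12 libraries, and in eWAT the triangles of the ob/ob-Veh libraries stand above those of the WT-Veh libraries while the circles overlap.

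Against Lyve1/Cd163 macrophages, monocyte genes were higher too, and some inflammatory genes. The lists below are to be read against the 8.5% and 12.0% of all genes. Of 11 classical monocyte genes outside the rule, 7 were higher than in Lyve1/Cd163 macrophages in all 12 libraries, among them the fibronectin gene Fn1 (4018 against 349.6 CPM) and Chil3, which encodes the chitinase-like protein Ym1 (235 against 11.3). Of 25 NF-kB and cytokine genes, 10 were higher in every library, led in level by the cytokine Il1b (844 against 75.6). The fractalkine receptor Cx3cr1 (48.0 against 2.53) and the integrin Itgax (91.2 against 8.42) followed the same direction in 12 of 12 libraries. The mature macrophage genes ran the other way, with 8 of 13 outside the rule lower in every library. The complement gene C1qa stood at 949.9 against 5159 CPM, the apolipoprotein gene Apoe at 3929 against 22098, and the folate receptor gene Folr2, a perivascular marker, at 79.3 against 1217. Of 12 perivascular genes that the rule did not use, 11 were lower in every library. That count is partly built in, since the 2 classes were cut on Lyve1 and Cd163. Also lower in every library were 17 of 30 lysosomal genes and 8 of 11 iron-handling genes. Among genes of 20 CPM or more these counts were 6 of 8 (monocyte), 9 of 23 (NF-kB and cytokine), 8 of 13 (macrophage), 11 of 12 (perivascular), 16 of 28 (lysosomal) and 8 of 11 (iron). Against Trem2 macrophages, also without Lyve1 and Cd163, 3 of 10 perivascular genes at that level were lower in every library used and 0 higher. Of 8 monocyte genes 3 were higher and 0 lower (all genes 10.8% higher and 11.5% lower). Against macrophage-lineage cells with Ly6c2, 8 of 13 macrophage and 15 of 30 lysosomal genes were higher in the 6 libraries used and 0 lower. Of 11 monocyte genes 1 was higher and 2 lower there, and of 78 ribosomal protein genes 0 and 57. The share over all genes was not counted for this comparison, so these counts have no background to be read against.

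The marker genes Fcrls, Lyz1 and H2-Ab1 set the cells apart to different degrees. Fcrls, a scavenger receptor of the Fc receptor-like family, was found in 45.4% of the Ear2/Ccr2 macrophages, 36.1% of the Lyve1/Cd163 macrophages, 10.5% of the Trem2 macrophages and 1.72% of endothelial cells, which should lack it. With each cell thinned to 700 UMIs these shares were 20.1%, 12.6%, 2.12% and 0.563%. Lyz1, a lysozyme gene, was found in 33.1% of the thinned Ear2/Ccr2 macrophages, 5.51% of the Lyve1/Cd163 macrophages, 6.13% of the Trem2 macrophages and 2.45% of the endothelial cells. H2-Ab1 reached 84.6% of the thinned cells against 55.8%, 55.6% and 13.1%, so it was common to all macrophages. All these shares pool the cells of the 12 libraries, and the labels are mixed unequally in the classes. The ob/ob-Veh libraries held 74 and 85 (eWAT) and 8 and 2 (iWAT) Trem2 macrophages. They held 1234 and 1092 (eWAT) and 1242 and 1117 (iWAT) Lyve1/Cd163 macrophages. The part of this mixture in the shares was not tested. Fcrls lies on chromosome 3 from 87250758 to 87263738 (reverse strand), Lyz1 on chromosome 10 from 117287797 to 117292868 (reverse strand) and H2-Ab1 on chromosome 17 from 34257689 to 34269419 (forward strand). The near-identical neighbour Lyz2 makes Lyz1 counts uncertain where reads cannot be split between them, and Lyz2 itself was closer between the classes (8918 against 6542 CPM).

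Cells with both transcripts differed from those with 1 of them. Fcrls was found in 64.3% of cells with both, 30.0% of those with Ear2 alone and 17.8% of those with Ccr2 alone, and Lyz1 in 61.4%, 33.3% and 25.7%. Thinned to 700 UMIs per cell, the shares were 29.7%, 10.9% and 7.22% for Fcrls and 46.5%, 24.0% and 14.4% for Lyz1. These shares pool all libraries, in which the labels are again mixed unequally. Of 1328 cells with both, 288 and 184 came from the eWAT ob/ob-Veh libraries. These libraries gave 12 and 21 of 267 cells with Ear2 alone and 72 and 45 of 762 with Ccr2 alone. The part of this mixture in the shares was not tested. In the 5 libraries with 20 or more cells of each single class, 5 of 12 genes of patrolling (nonclassical) monocytes were higher in cells with Ear2 alone than in cells with Ccr2 alone in 5 of 5 libraries (2.82% of all genes were) and 0 were lower in all 5 (3.8% of all genes). The 5 were Ace, Treml4, Adgre4, Nr4a1 and Cebpb, while Cx3cr1 was higher in 3 of 5 libraries, and Fabp4 too, with mean levels of 5158 and 5450 CPM. Mean levels were 197 against 25.3 CPM for the peptidase gene Ace, 104 against 9.58 for Treml4 and 139.7 against 36.6 for Adgre4. Of 12 lipid-associated macrophage genes 4 were likewise higher with Ear2 alone in all 5 libraries, and 0 with Ccr2 alone. Of 13 macrophage genes 6 were higher with Ccr2 alone in all 5 libraries, and 1, Tyrobp, with Ear2 alone. Cells with Ccr2 alone held more C1qa (1694 against 514 CPM), Apoe (7512 against 3575) and Cd74 (15756 against 10762), again in 5 of 5 libraries. Of the 2357 cells, 381 held a UMI of the dendritic cell genes Cd209a, Zbtb46, Ccr7, Xcr1 or Clec9a.

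In eWAT the share of these cells was highest under the label ob/ob-Veh. They made up 1.34% and 1.11% of kept cells in the WT-Veh libraries. The share was 4.06% and 3.23% under ob/ob-Veh, and 2.46% and 1.48% under ob/ob-Rosi. The ob/ob-Veh libraries did not overlap with either other label, and the group means were 1.23% ± 0.16, 3.64% ± 0.59 and 1.97% ± 0.69 (SD, n = 2 each). Without possible doublets (cells with 3 or more UMIs of lymphoid, endothelial, stromal, mesothelial or neutrophil markers) the shares were 1.17% and 0.819%, 2.80% and 1.39%, and 2.07% and 1.15%, so that ob/ob-Veh overlapped with ob/ob-Rosi and still lay above WT-Veh. The ratio of means was 2.97-fold for ob/ob-Veh over WT-Veh and 1.85-fold lower for ob/ob-Rosi than for ob/ob-Veh, each with an exact two-sided permutation p of 0.333, the smallest that 2 libraries against 2 can give. In iWAT the shares were 0.375% and 2.26% under WT-Veh, 1.97% and 1.24% under ob/ob-Veh and 2.14% and 2.06% under ob/ob-Rosi, so the WT-Veh pair spanned the other 4 libraries (exact permutation p = 1.0 for ob/ob-Veh against WT-Veh).

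**Figure D2:**
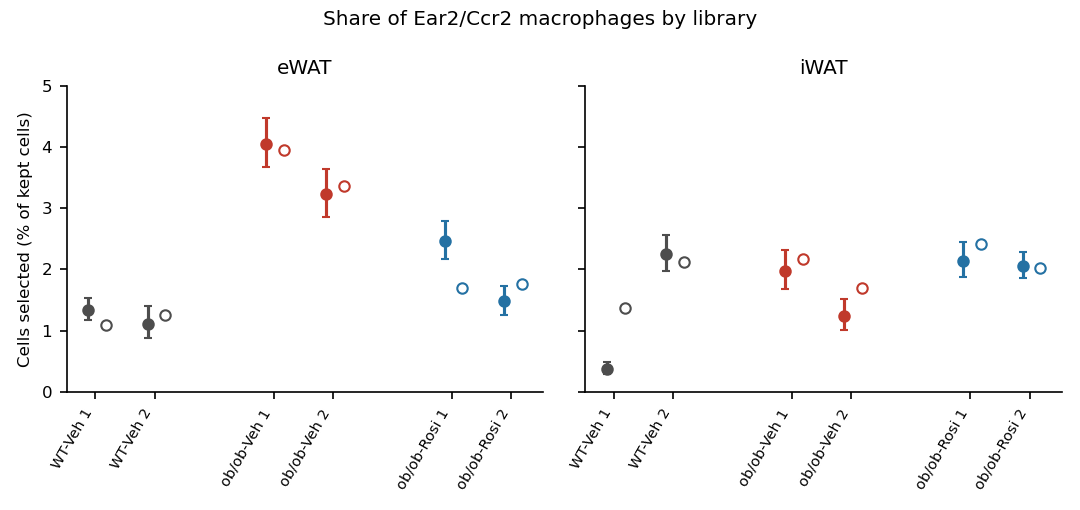
Share of kept cells that met the rule (vertical axis, percent) in each library of eWAT and iWAT. Filled circles are the shares with 95% Wilson intervals, which cover counting error only, and open circles are the shares after every cell of 2000 UMIs or more was thinned to 2000 UMIs. In eWAT both ob/ob-Veh libraries lie above the other 4 either way, and in iWAT the WT-Veh pair spans 0.375% to 2.26%.

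Free RNA moved with these shares, and by the rule 1 UMI of Trem2, a cell's own or stray, takes a cell out of the class. Endothelial cells, which should lack Trem2, held 165 and 151 CPM of it under the eWAT label WT-Veh, 3.74 and 4.97 under ob/ob-Veh and 124 and 181 under ob/ob-Rosi. Trem2 macrophages themselves numbered 2229 and 1087 under WT-Veh, 74 and 85 under ob/ob-Veh, and 1370 and 2468 under ob/ob-Rosi. Cell depth moved as well: the median UMI count of the Ear2/Ccr2 macrophages was 1939 and 2555.5 in the eWAT WT-Veh libraries, 4517 and 3649.5 in the ob/ob-Veh libraries and 1610.0 and 3584 in the ob/ob-Rosi libraries. After thinning to 2000 UMIs, which takes away the depth gap and leaves the free RNA, the eWAT shares were 1.09% and 1.26%, 3.95% and 3.37%, and 1.70% and 1.76%. The eWAT libraries held 14718 and 6472, 9165 and 7751 and 9439 and 10068 kept cells. Of the cells with Adgre1 or Csf1r, 990 and 641, 1045 and 855 and 1071 and 1245 held 2 or more UMIs of Ear2 and Ccr2. Requiring 0 UMIs of Lyve1, Cd163 and Trem2 left 247 and 109, 579 and 402 and 329 and 194. The ob/ob-Rosi counts thus lay above those of ob/ob-Veh before this condition and below them after it. The part of this condition and of free Trem2 RNA in the shares was not tested.

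Gene levels were compared with UMI counts summed over the Ear2/Ccr2 macrophages of each library, using the quasi-likelihood test of edgeR with the library as the unit. Genes with a p of 0.05 or less after Benjamini-Hochberg adjustment and a 1.1-fold change or more were called, and the 12 genes of the rule were not tested. ob/ob-Veh against WT-Veh is the genotype comparison and ob/ob-Rosi against ob/ob-Veh the Rosi comparison. Both use the same ob/ob-Veh libraries, so their values are set side by side and a mirror image between them is partly built in. Changes are log2 fold changes of the first named label over the second, and with 3 residual degrees of freedom every p rests on the variance model.

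In eWAT, 143 of 6581 genes tested were called between ob/ob-Veh and WT-Veh (2.17%), 62 higher (0.942%) and 81 lower (1.23%). Between ob/ob-Rosi and ob/ob-Veh 260 were called (3.95%), 134 higher (2.04%) and 126 lower (1.91%). The first count was 35 without WT-Veh replicate 1 and 90 without WT-Veh replicate 2. The second was 53 without ob/ob-Rosi replicate 2, 494 without ob/ob-Rosi replicate 1 and 162 without ob/ob-Veh replicate 1. No gene was called between ob/ob-Rosi and WT-Veh in eWAT (0%) or in iWAT (0%) by edgeR, although 172 and 216 genes passed an unadjusted p of 0.05 and DESeq2 called 1 and 2.

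Lyz1, a marker of these cells, changed with the labels in eWAT. Its level was 768 and 168 CPM in the WT-Veh libraries, 3713 and 4946 in the ob/ob-Veh libraries and 907 and 227 in the ob/ob-Rosi libraries. Both ob/ob-Veh libraries lay above the other 4, and the log2 change was 3.09 ± 0.59 (SE), adjusted p = 0.00961 for ob/ob-Veh over WT-Veh and -2.91 ± 0.59 (adjusted p = 0.00591) for ob/ob-Rosi over ob/ob-Veh. Fcrls stood at 209 and 72.0, 903 and 861 and 280.0 and 47.9 CPM in the same order. Again the ob/ob-Veh pair did not overlap with the rest, at 2.53 ± 0.56 (adjusted p = 0.0211) and -2.42 ± 0.54 (adjusted p = 0.0124). Groups without overlap were common among all 6581 genes. In the genotype comparison 1814 lay higher and 1467 lower without overlap, and in the Rosi comparison 1509 and 1570. Retnla, which encodes the secreted protein RELMα and is induced by interleukin 4, was among the most abundant transcripts, at 3347 and 1693 CPM under WT-Veh, 21976 and 20556 under ob/ob-Veh and 4299 and 724 under ob/ob-Rosi. Its changes were 3.00 ± 0.58 (adjusted p = 0.0099) and -3.07 ± 0.58 (adjusted p = 0.00366). The 15 genes of the alternative activation list had the same order in and outside these cells. They summed to 5273 and 3639, 23710 and 22095 and 6288 and 2495 CPM here. In Lyve1/Cd163 macrophages they gave 8456 and 5956, 19702 and 17225 and 8136 and 4602, and in all kept cells 2172 and 2160, 7001 and 6658 and 2196 and 1198. Without ob/ob-Rosi replicate 2, neither Lyz1, Fcrls nor Retnla was called in the Rosi comparison (adjusted p = 0.175, 0.182 and 0.0621). Lyz2, the copy next to Lyz1, was not called in either comparison (-0.25 ± 0.37 (adjusted p = 0.797) and 0.35 ± 0.37 (adjusted p = 0.674)).

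Cytokines and chemokines went both ways. Il6, an inflammatory cytokine, stood at 84.5 and 80.1 CPM under WT-Veh, 204 and 409.5 under ob/ob-Veh and 19.2 and 16.0 under ob/ob-Rosi, so that the 3 labels did not overlap. It rose by 1.79 ± 0.37 (adjusted p = 0.0147) in the genotype comparison, and in the Rosi comparison it changed by -4.06 ± 0.43 (adjusted p = 1.59e-05), the largest fall among called genes of at least 50 CPM. Of 16 chemokine ligands tested, 2 rose and 4 fell in the genotype comparison (median change -0.27, all genes 0.00), and 4 rose and 2 fell between ob/ob-Rosi and ob/ob-Veh. Of all genes 0.942% rose and 1.23% fell, and then 2.04% and 1.91%, and by total UMIs the ligand counts were 2 and 3, and then 3 and 2. Ccl24, an eosinophil attractant, held 39.8 and 144, 516 and 487 and 95.9 and 26.6 CPM, and Cxcl10, an interferon-induced T cell attractant, 24.9 and 12.0, 143 and 176 and 30.7 and 3.55. Both were highest under ob/ob-Veh (2.47 ± 0.50 (adjusted p = 0.0117) and 2.93 ± 0.53 (adjusted p = 0.00685)) and lower under Rosi (-3.02 ± 0.49 (adjusted p = 0.00106) and -3.20 ± 0.50 (adjusted p = 0.000837)). Ccl3, a monocyte attractant, had the opposite order, with 77.0 and 44.0, 15.4 and 16.2 and 84.4 and 131 CPM (-2.05 ± 0.42 (adjusted p = 0.0147) and 2.79 ± 0.38 (adjusted p = 0.000285)). Cxcl9 was called lower in ob/ob-Veh than WT-Veh, but its groups overlapped and the value rests on WT-Veh replicate 2, without which it was 0.12.

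**Figure D3:**
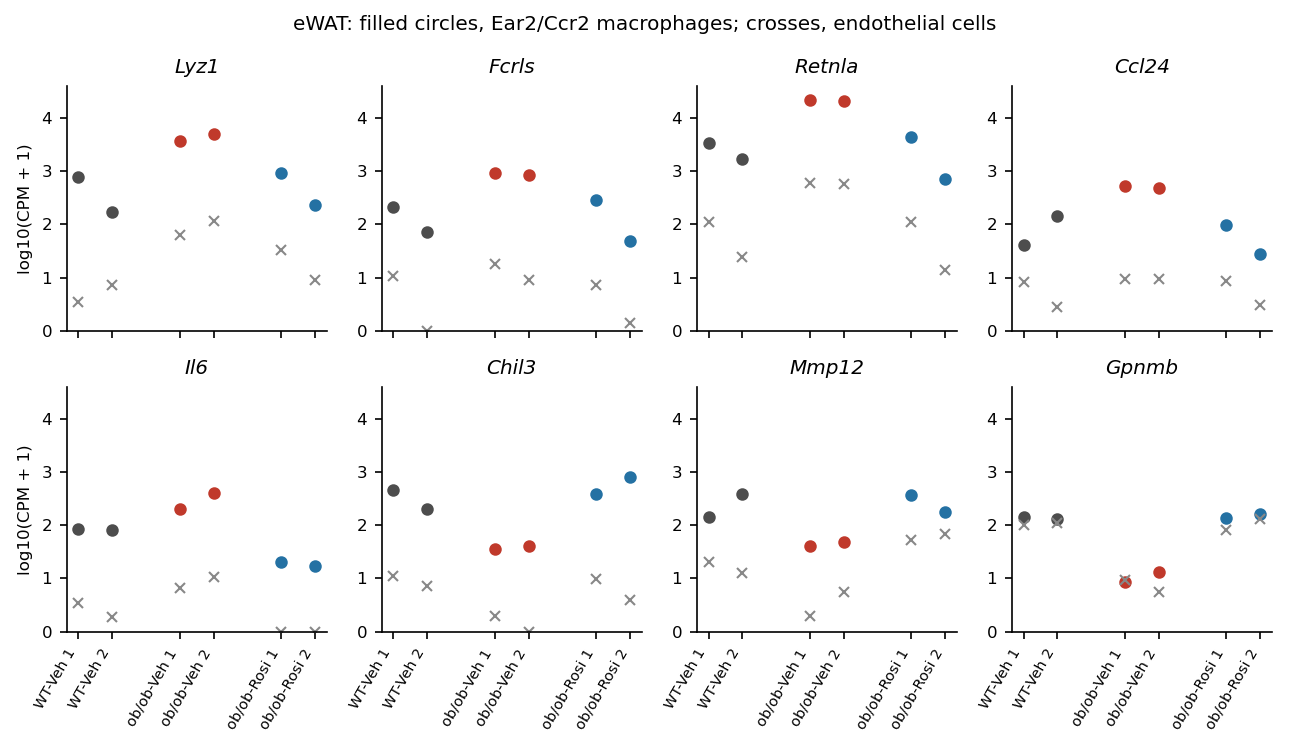
Levels of 8 genes in each eWAT library, as log10 of CPM plus 1, in Ear2/Ccr2 macrophages (filled circles) and in endothelial cells of the same library (grey crosses), a class that should hold little macrophage RNA. Lyz1, Fcrls, Retnla, Ccl24 and Il6 are highest in both ob/ob-Veh libraries, Chil3 and Mmp12 are lowest there, and all 7 lie above the crosses, while the circles of Gpnmb lie within 2 times of the crosses in 5 of 6 libraries.

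The genes with the largest calls among those of at least 50 CPM were Lsmem1, Hspa1b, Tmem154, Lyz1 and Gstp3 on the higher side of ob/ob-Veh over WT-Veh, and Ccl8, Gpnmb, Atp6v0d2, the stromal gene Mgp and Chil3 on the lower side. Lsmem1, which encodes a small membrane protein, rose from 19.9 and 60.04 to 369.8 and 352 CPM and stood at 38.4 and 14.2 under Rosi (3.22 ± 0.46 (adjusted p = 0.000619) and -3.77 ± 0.45 (adjusted p = 4.63e-05)). Gstp3, a glutathione transferase gene, and Tmem154 changed by 3.04 ± 0.61 (adjusted p = 0.0115) and 3.12 ± 0.62 (adjusted p = 0.0115). Chil3 was lowest under ob/ob-Veh, with 455 and 200.2, 35.3 and 39.0 and 389 and 818 CPM, and the 2 changes were -3.24 ± 0.45 (adjusted p = 0.000554) and 4.05 ± 0.46 (adjusted p = 3.43e-05). Between ob/ob-Rosi and ob/ob-Veh the largest calls were Chil3, Mgp, Gpnmb, Ccl8 and Ms4a7 on the higher side and Il6, Arg1, Gstp3, Lsmem1 and Hbb-bs on the lower side. Of these, the arginase gene Arg1 (117 and 14.6 CPM under ob/ob-Veh) and the haemoglobin gene Hbb-bs (25.3 and 301) differed widely between their own replicates.

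Genes of lipid-associated macrophages were lower under ob/ob-Veh and higher under Rosi in eWAT. Of 12 such genes outside the rule, 9 fell in the genotype comparison (median change -2.15, all genes 0.00) and 9 rose in the Rosi comparison (median 2.23, all genes 0.02). Of all genes 1.23% fell and then 2.04% rose, and by total UMIs 7 of the 12 fell and 9 rose. Without a library in turn, 3 to 8 were called lower and 5 to 9 higher. In endothelial cells of the same libraries, the 9 genes that fell were also lowest in both ob/ob-Veh libraries, Mmp12 and Lgals3 included. Gpnmb, a glycoprotein gene of lipid-laden macrophages, held 144 and 132 CPM under WT-Veh, 7.68 and 12.2 under ob/ob-Veh and 136 and 159.6 under ob/ob-Rosi (-3.90 ± 0.40 (adjusted p = 1.49e-05) and 3.96 ± 0.39 (adjusted p = 7.15e-06)). In endothelial cells it held 101 and 109, 8.41 and 4.55 and 80.3 and 129 CPM, within 2 times of the macrophages in 5 of 6 libraries. The tetraspanin gene Cd63 gave 504 and 460.3, 50.2 and 95.1 and 631 and 450.5 CPM against 392.5 and 341, 189 and 170.5 and 282 and 394 in endothelial cells, and the chemokine gene Ccl8 127 and 128, 7.23 and 8.13 and 205 and 26.6 against 96.3 and 58.2, 3.74 and 8.28 and 118 and 18.6. The part of free RNA in the calls of these genes was not tested.

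A comparison with the endothelial level, chosen after the values were seen, set apart the genes whose level lay above it. The endothelial cells were cut at 0 UMIs of Adgre1 and Csf1r, which favours cells with little stray macrophage RNA. A level above theirs is therefore a description and does not show that stray RNA had no part. Of the lipid-associated genes called, Mmp12 and Lgals3 exceeded 2 times the endothelial level in 6 of 6 eWAT libraries. Mmp12, the macrophage elastase, held 139 and 380.3 CPM under WT-Veh, 39.3 and 47.9 under ob/ob-Veh and 374 and 174 under ob/ob-Rosi. The ob/ob-Veh pair lay below all others (-2.60 ± 0.44 (adjusted p = 0.0033) and 2.68 ± 0.43 (adjusted p = 0.00094)). Lgals3, galectin 3, held 2428 and 2618, 871 and 787 and 2410.5 and 2815 CPM, against 874 and 693, 50.4 and 77.4 and 796 and 965 in endothelial cells (-1.67 ± 0.36 (adjusted p = 0.0178) and 1.68 ± 0.36 (adjusted p = 0.0084)). Lyz1, Fcrls, Retnla, Ccl24, Il6, Cxcl10, Ccl3, Chil3 and Lsmem1 also exceeded 2 times the endothelial level in all 6. Apoe did so in 2 of 6, and Fabp5, a fatty acid binding protein, and the cathepsin gene Ctsl in 0 of 6.

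Some receptors that bind antibodies, lipids and sugars were called in eWAT. Of 15 Fc and scavenger receptor genes, 3 fell in the genotype comparison (median change -0.86, with 1.23% of all genes called lower; 2 by total UMIs) and 12 were not called. In the Rosi comparison 7 rose (median 1.11, with 2.04% of all genes called higher) and 8 were not called. Of the 7, 6 exceeded 2 times the endothelial level in all 6 libraries. Fcgr4, an activating Fc receptor, held 54.7 and 76.1 CPM under WT-Veh, 16.7 and 24.4 under ob/ob-Veh and 49.9 and 95.8 under ob/ob-Rosi (-1.73 ± 0.42 (adjusted p = 0.0339) and 1.89 ± 0.39 (adjusted p = 0.00713)). The scavenger receptor Msr1 (1.98 ± 0.41 (adjusted p = 0.00761)) and the lectin receptors Clec4n (2.94 ± 0.50 (adjusted p = 0.00154)) and Clec12a (1.45 ± 0.36 (adjusted p = 0.0235)) rose with Rosi. Of 27 lysosomal genes 4 fell and then 7 rose in the 2 comparisons. Without WT-Veh replicate 1 none of these receptors was called in the genotype comparison, and without ob/ob-Rosi replicate 2, 2 were called in the Rosi comparison.

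Genes known to respond to tissue dissociation had their highest summed level under ob/ob-Veh. It was 10544 and 11837 CPM under WT-Veh, 19637 and 17021 under ob/ob-Veh and 9322 and 9249 under ob/ob-Rosi, and in Lyve1/Cd163 macrophages 19909 and 22676, 38568 and 30198 and 20429 and 22379.6. Of 24 genes, 2 rose between ob/ob-Veh and WT-Veh, the heat shock genes Hspa1a and Hspa1b (0.942% of all genes rose), and 6 fell between ob/ob-Rosi and ob/ob-Veh (1.91% of all genes fell). The list moves with Il6, Lyz1 and Retnla, and its part in their change was not tested. Of 9 MHC class II genes, 1 was called in each comparison (H2-DMb2, 2.05 ± 0.46 (adjusted p = 0.024) and -2.45 ± 0.44 (adjusted p = 0.00216)), and H2-Ab1 was not called (6061 and 9167, 6230.2 and 6287 and 7483 and 5225 CPM, -0.34 ± 0.37 (adjusted p = 0.721) and 0.05 ± 0.37 (adjusted p = 0.969)). Of 23 PPAR target genes, 4 fell between ob/ob-Veh and WT-Veh (2 by total UMIs, against 1.23% of all genes) and 1, Fabp5, rose between ob/ob-Rosi and ob/ob-Veh (2.04% of all genes rose). No gene of the 78 ribosomal proteins or the 40 of oxidative phosphorylation was called in eWAT.

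The makeup of the class by Ear2 and Ccr2 differed between the eWAT labels. Cells with both Ear2 and Ccr2 were 36.0% and 38.9% of the class under the eWAT label WT-Veh, 77.4% and 73.6% under ob/ob-Veh and 33.6% and 27.5% under ob/ob-Rosi, a split on the rule's own genes that is given as a description. Depth moved with it, and the ob/ob-Veh cells were the deepest (median 4517 and 3649.5 UMIs, against 1610.0 to 3584). With every cell thinned to 2000 UMIs, cells with both were 37.8% and 33.9%, 65.2% and 75.7% and 35.9% and 26.7% of the class. The part of this makeup in the changes of Fcrls and Lyz1 was not tested. Among cells with Ccr2 alone, 9 and 21 genes were called in the 2 comparisons in place of 143 and 260. There Lyz1 gave 1.19 (adjusted p = 0.581) and -1.47 (adjusted p = 0.398), and Fcrls 1.84 (adjusted p = 0.408) and -1.13 (adjusted p = 0.552), in fits of fewer cells. The fit could not be made for cells with Ear2 alone in eWAT, where some libraries held fewer than 20. Among cells with Ccr2 alone, Gpnmb was called in both comparisons, Retnla in the genotype comparison and Il6 in the Rosi comparison.

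In iWAT, 365 of 7507 genes tested were called between ob/ob-Veh and WT-Veh (4.86%), 133 higher (1.77%) and 232 lower (3.09%). Between ob/ob-Rosi and ob/ob-Veh 1093 were called (14.6%), 636 higher (8.47%) and 457 lower (6.09%). Scaled by total UMIs in place of TMM, 376 (221 higher, 155 lower) and 1164 (465 higher, 699 lower) were called, and the median of all genes moved from 0.07 to 0.32 and from -0.12 to -0.37. These counts rest on single libraries. Without ob/ob-Veh replicate 1 they were 0 and 10, and without replicate 2 34 and 81. Without WT-Veh replicate 1 they were 1484 and 2005, without WT-Veh replicate 2 192 and 1900, and without ob/ob-Rosi replicate 2 the second was 310. Possible doublets were unevenly spread over the iWAT labels. Without them 51 of 64 and 185 of 222 cells were left under WT-Veh, 51 of 142 and 37 of 89 under ob/ob-Veh, and 108 of 207 and 245 of 361 under ob/ob-Rosi. The flag counts raw UMIs, so stray stromal RNA can also raise it. Under ob/ob-Veh 12 stromal genes summed to 6784 and 6412 CPM in these cells. They summed to 7013 and 6313 in Lyve1/Cd163 macrophages and 5004 and 5323 in endothelial cells. The part of stray RNA in the flag was not tested. Without the 779 possible doublets of both depots the counts of called genes were 26 (22 higher, 4 lower) and 315 (218 higher, 97 lower) of 4882 genes tested, so the balance of the genotype comparison turned round. Fcrls, Il1b, Tyrobp, Lgals3, Chil3, Fabp4, Hilpda and F13a1, described below, then kept their direction in the genotype comparison but were not called (edgeR, adjusted p = 0.0537 to 0.0915). In the Rosi comparison Fcrls, Chil3, Hilpda and F13a1 were not called either (adjusted p = 0.0703 to 0.0875). The iWAT ob/ob-Veh libraries also stood apart in RNA quality, with a median of 12.0% and 12.7% mitochondrial UMIs per Ear2/Ccr2 macrophage against 2.04% to 8.97% in the other 4. Their median depth was 2004.5 and 2056 UMIs, against 1924 to 5092.

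Fcrls was again highest under ob/ob-Veh. It held 98.8 and 159.9 CPM in the WT-Veh libraries, 706 and 989.6 in the ob/ob-Veh libraries and 193 and 198 in the ob/ob-Rosi libraries. The ob/ob-Veh pair did not overlap with the rest (2.40 ± 0.43 (adjusted p = 0.0111) and -1.87 ± 0.41 (adjusted p = 0.0103)), and the level exceeded 2 times that of endothelial cells in 6 of 6 libraries. Of all 7507 iWAT genes, 2536 lay higher and 1270 lower without overlap in the genotype comparison, and 1765 and 3263 in the Rosi comparison. Lsmem1 held 32.9 and 43.7, 598 and 694 and 52.0 and 14.0 CPM and changed by -4.13 ± 0.51 (adjusted p = 0.000769) in the Rosi comparison, and Slc5a3, the inositol transporter gene, by -3.44 ± 0.67 (adjusted p = 0.0074). Lyz1 and Retnla, which had changed in eWAT, were not called in iWAT. Lyz1 stood at 593 and 2085, 799.8 and 2261 and 1468 and 2819.6 CPM, with overlapping groups (-0.08 ± 0.66 (adjusted p = 0.957) and 0.75 ± 0.66 (adjusted p = 0.458)). Retnla changed by 0.03 ± 0.72 (adjusted p = 0.987) and 0.02 ± 0.72 (adjusted p = 0.986).

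**Figure D4:**
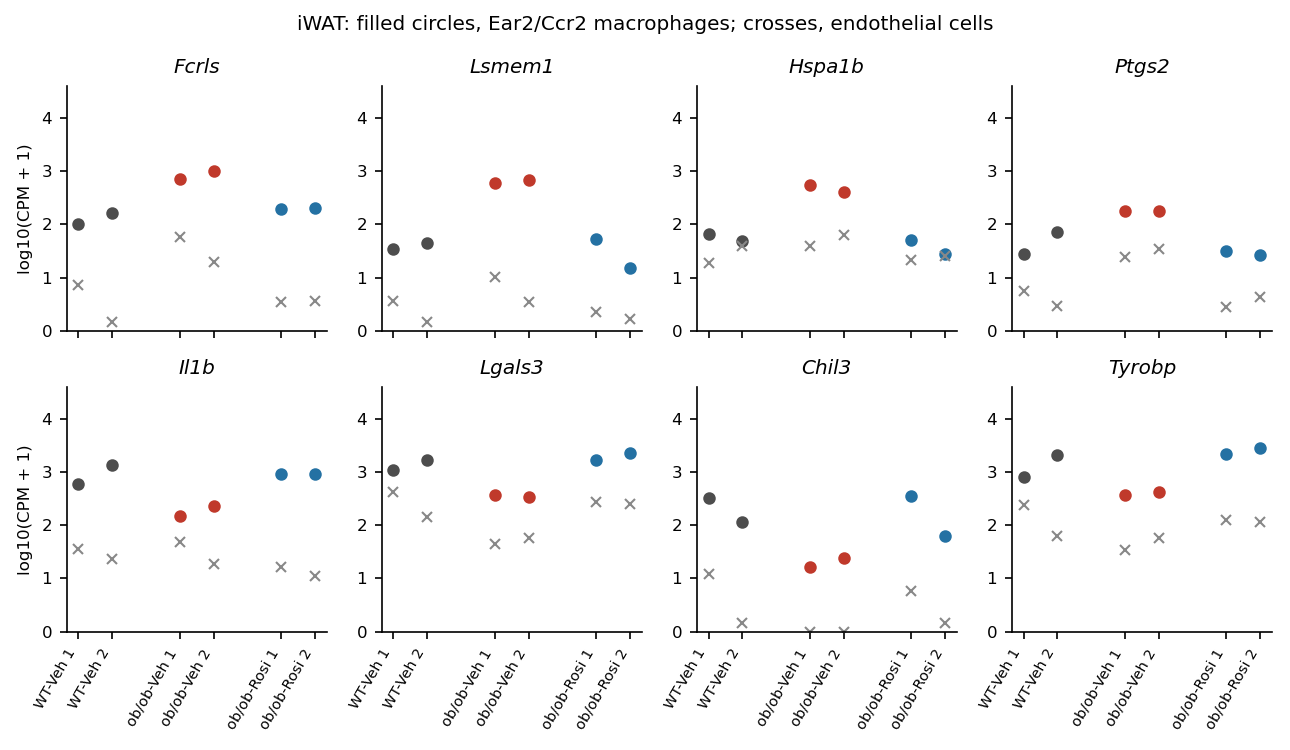
Levels of 8 genes in each iWAT library, as log10 of CPM plus 1, in Ear2/Ccr2 macrophages (filled circles) and endothelial cells of the same library (grey crosses). Fcrls, Lsmem1, Hspa1b and Ptgs2 are highest in both ob/ob-Veh libraries, and Il1b, Lgals3, Chil3 and Tyrobp are lowest there.

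Single inflammatory and macrophage genes were called in iWAT, without a common direction over their lists. Of 25 NF-kB and cytokine genes, 2 fell in the genotype comparison, Il1b and Bcl2a1b (median change -0.27, all genes 0.07; 3.09% of all genes fell), and in the Rosi comparison these 2 rose and Ptgs2 fell. By total UMIs 1 was higher and 2 lower, and then 2 and 2. The list summed to 6490 and 6854, 4448 and 6116 and 6007 and 5244 CPM, with ob/ob-Veh and ob/ob-Rosi overlapping. Of 13 macrophage genes 1 fell in the genotype comparison, and 3 rose and 1 fell in the Rosi comparison (8.47% of all genes rose and 6.09% fell). By total UMIs the balance differed, with 1 macrophage gene higher and 1 lower and then 1 higher and 2 lower. The cytokine gene Il1b held 599.6 and 1378 CPM under WT-Veh, 151 and 229.8 under ob/ob-Veh and 924 and 901 under ob/ob-Rosi. The ob/ob-Veh pair lay below the other 4 (-2.65 ± 0.52 (adjusted p = 0.0174) and 2.51 ± 0.52 (adjusted p = 0.00862)). The signalling adaptor gene Tyrobp (810.4 and 2121, 371 and 422 and 2179.6 and 2767 CPM), Lgals3 (1067 and 1706, 371 and 333 and 1711 and 2287) and Chil3 (323 and 113, 15.1 and 23.4 and 346 and 60.5) had the same order and were called in both comparisons. The prostaglandin synthase gene Ptgs2 ran the other way, at 26.4 and 70.9, 178 and 178 and 30.4 and 25.6 CPM, with a change of -2.43 ± 0.42 (adjusted p = 0.00475) in the Rosi comparison. Arg1 held 0 UMIs in both ob/ob-Veh libraries and 29.4 and 44.8 CPM under ob/ob-Rosi, at least 7.09-fold higher over a floor of 3 counts in the 2 ob/ob-Veh libraries together. Among 16 interferon-stimulated genes 4 rose with ob/ob-Veh (Oasl2, Stat2, Ifit1 and Mx1), of which the last pair held 0 UMIs in both WT-Veh libraries and were at least 15.0-fold and 13.4-fold higher. Of all genes 1.77% rose in that comparison. With Rosi 1 of the 16 rose and 3 fell (8.47% and 6.09% of all genes), and 0 and 6 by total UMIs, while the summed level of all 22 genes of the list did not fall (1193 and 1576, 1922 and 1961 and 2052 and 2047 CPM).

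Part of the ribosomal protein and respiratory chain genes fell with ob/ob-Veh in iWAT, and most rose with Rosi. The 78 ribosomal protein genes summed to 129784 and 223913 CPM under WT-Veh, 52340.1 and 62141 under ob/ob-Veh and 176166 and 230473 under ob/ob-Rosi. Between ob/ob-Veh and WT-Veh 45 of 78 fell (median change -2.04, all genes 0.07), and between ob/ob-Rosi and ob/ob-Veh 66 rose (median 2.20, all genes -0.12). Of all genes tested, 3.09% fell in the first comparison and 8.47% rose in the second. Of 40 genes of oxidative phosphorylation, 14 fell (median -1.47) and then 34 rose (median 1.96), and by total UMIs 8 fell and 30 rose. The same order was present outside these cells, with 109601 and 140733, 38886 and 56684 and 115637 and 165799.8 CPM of ribosomal protein genes in Lyve1/Cd163 macrophages and 158841 and 170502, 80047 and 84856 and 141277 and 183631 in all kept cells. Without ob/ob-Veh replicate 1, no ribosomal protein gene was called in either comparison, at medians of -1.93 and 2.15, and without ob/ob-Veh replicate 2 it was 1 in each. Without possible doublets 0 ribosomal protein genes fell (median -1.93) and 55 rose (median 2.14), and of the oxidative phosphorylation genes 0 fell (median -1.41) and 21 rose (median 1.91). The part of RNA quality in this change was not tested.

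**Figure D5:**
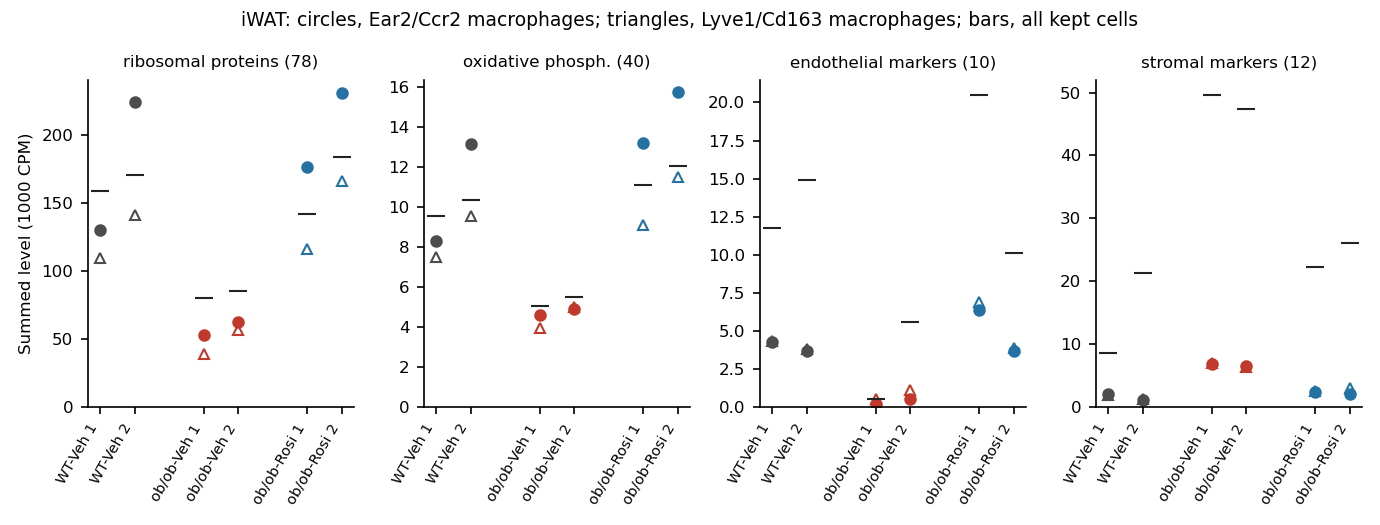
Summed level (vertical axis, CPM divided by 1000) of 4 gene lists in each iWAT library, in Ear2/Ccr2 macrophages (circles), Lyve1/Cd163 macrophages (triangles) and all kept cells (bars). Ribosomal protein and oxidative phosphorylation genes are lowest in the 2 ob/ob-Veh libraries in all 3 sets of cells, and the endothelial markers are lowest and the stromal markers highest there in all 3.

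Transcripts of other cell types also changed in iWAT. The counts below are to be read against all genes, of which 1.77% rose and 3.09% fell in the genotype comparison. In the Rosi comparison 8.47% rose and 6.09% fell. Of 9 endothelial genes tested, 6 fell with ob/ob-Veh (median change -3.71) and 9 rose with Rosi (median 5.23), and the 10 genes of the list summed to 4256 and 3678, 154 and 530.0 and 6358 and 3651 CPM. In all kept cells they summed to 11736 and 14905, 525 and 5549.8 and 20463 and 10089 CPM. Stromal genes had the reverse order, 1937 and 1034, 6784 and 6412 and 2253 and 1975 CPM, with 9 of 12 rising with ob/ob-Veh and 7 falling with Rosi, and in endothelial cells of the same libraries the list gave 2996 and 1823, 5004 and 5323 and 2259 and 3474 CPM. The 5 largest iWAT calls in each direction held several of these markers. Gpihbp1, of capillary endothelium, the endothelial gene Cldn5, the retinol-binding protein gene Rbp7, Mgll and the T cell gene Cd3g led the lower side. Rbp7 held 0 UMIs under ob/ob-Veh and was at least 31.2-fold lower there, and Cd3g at least 7.45-fold. Scara5, Prss23 and Serpine2 led the higher side with Oasl2 and Cd209g. With Rosi, Gpihbp1, Cldn5, Cxcl9, Timp4 and Ctla2a led the higher side, and Oasl2, Cd209f and Cd209g stood among the 5 largest falls with Lsmem1 and Slc5a3. Of 7 T and NK cell genes tested, 4 fell in the genotype comparison (median -3.53 as fitted, -2.44 with genes at 0 set to their bound). Over the 12 libraries of both depots the summed level was 69.2 to 593 CPM for 9 B cell genes, 70.4 to 692 for 12 T and NK cell genes, 16.0 to 165 for 10 neutrophil genes and 21.4 to 492 for 8 mesothelial genes. The part of these transcripts in the iWAT calls was not tested.

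Some PPAR target genes were called in iWAT. Of 23 tested, 7 fell in the genotype comparison (median change -1.38, with 3.09% of all genes lower) and 6 rose in the Rosi comparison (median 0.81, with 8.47% of all genes higher). Without possible doublets 0 fell and 2 rose. The 27 genes of the list summed to 13467 and 10031, 3350 and 6496 and 11655 and 8319 CPM. The ob/ob-Veh libraries were also lowest outside these cells. Lyve1/Cd163 macrophages held 8877 and 7835, 3300 and 4125 and 10118 and 6707 CPM. All kept cells held 18588 and 20791, 2696 and 8414 and 24877 and 13082. The part of stray RNA in the calls of this list was not tested. The fatty acid binding protein gene Fabp4 held 3881 and 3065 CPM under WT-Veh, 124 and 478 under ob/ob-Veh and 5422 and 2880.1 under ob/ob-Rosi (-3.74 ± 0.68 (adjusted p = 0.0111) and 4.00 ± 0.69 (adjusted p = 0.00475)), against 38345 and 70096, 22416 and 44707 and 69327 and 56649 CPM in endothelial cells, which make it. Hilpda, a lipid droplet gene, exceeded 2 times the endothelial level in all 6 libraries. It held 270.1 and 115, 18.1 and 42.2 and 95.2 and 96.0 CPM (-2.85 ± 0.53 (adjusted p = 0.0122) and 1.99 ± 0.52 (adjusted p = 0.0208)). Of 11 perivascular macrophage genes tested, 4 rose with ob/ob-Veh (1.77% of all genes) and 5 fell with Rosi (6.09% of all genes), or 1 and 3 without possible doublets, with F13a1 at 277 and 329.7, 1132 and 915 and 310.2 and 322 CPM, far below the 3149.6 and 2877 CPM of Lyve1/Cd163 macrophages under ob/ob-Veh.

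Some changes differed between the Ear2/Ccr2 macrophages and the Lyve1/Cd163 macrophages of the same libraries. The difference of the 2 classes' changes was tested with the library as a block. In eWAT, 27 of 8219 genes were called in the genotype comparison (0.329%) and 26 in the Rosi comparison (0.316%), and in iWAT 80 of 10556 (0.758%) and 103 (0.976%). In eWAT 4 of 9 MHC class II genes were called in the genotype comparison (median difference -1.99, all genes 0.04), H2-Aa, H2-Ab1, H2-Eb1 and Cd74. H2-Ab1 in Lyve1/Cd163 macrophages stood at 834 and 944 CPM under WT-Veh and 2862 and 3301 under ob/ob-Veh, while the Ear2/Ccr2 macrophages held 6061 and 9167 and 6230.2 and 6287 CPM. The difference of the 2 changes was -2.03 ± 0.44 (SE), adjusted p = 0.0349, and it was -1.99 ± 0.44 (adjusted p = 0.0349) for Cd74. The WT-Veh values of Lyve1/Cd163 macrophages rest on 480 and 45 cells. Without WT-Veh replicate 1, 4 genes were called in all, and without ob/ob-Veh replicate 2, 80.

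Other genes of this kind were named by size. In eWAT Adam8 (2.15), Ccl4 (2.03) and the matrix gene Ecm1 (1.96) had the largest positive differences in the genotype comparison, and Hbb-bs, Cxcl9 and Hba-a2 the largest negative ones. Ccl4, a chemokine, held 199.6 and 395 CPM in Lyve1/Cd163 macrophages under WT-Veh and 30.6 and 46.1 under ob/ob-Veh. In Ear2/Ccr2 macrophages it held 149 and 124 and then 75.5 and 83.7 CPM. In the Rosi comparison the largest were Slpi (2.77), a gene of the mesothelial list, Bst1 (2.40) and Tnfsf9 (2.33), and Ecm1 (-2.12), Fabp5 (-1.83) and Rgs1 (-1.62). In iWAT the immediate early gene Egr1, one of the dissociation genes, differed between the classes. The 24 dissociation genes summed there to 10212 and 14686, 23344 and 22973 and 12192 and 11070 CPM in Ear2/Ccr2 macrophages, and to 22087 and 28529, 25238 and 26728 and 28109 and 24361 in Lyve1/Cd163 macrophages. In the former 3 rose (Jun, Hspa1a and Hspa1b, where 1.77% of all genes rose) and then 5 fell (6.09% of all genes fell), or 4 and 7 by total UMIs. The list moves with Egr1, Hspa1b and Ptgs2 in these cells, and its part in their change was not tested. The level of Egr1 in Ear2/Ccr2 macrophages was 474 and 699 CPM under WT-Veh, 2679.9 and 1717 under ob/ob-Veh and 665 and 540.3 under ob/ob-Rosi, and in Lyve1/Cd163 macrophages 3003 and 3986, 1989.5 and 2342 and 3446 and 3141. For Egr1 the ob/ob-Veh libraries were the highest in the one class and the lowest in the other (2.49 ± 0.34 (adjusted p = 4.48e-07) and -2.26 ± 0.33 (adjusted p = 1.93e-06)). Il1b differed by -1.96 ± 0.35 (adjusted p = 0.000354) and 1.47 ± 0.34 (adjusted p = 0.00838), with 34.0 and 62.0, 33.8 and 31.8 and 61.1 and 72.2 CPM in Lyve1/Cd163 macrophages. The 3 largest in each direction were Cd209g, Gpx3 and Plxna4, and Mgll, Ace and Aldh1a2, for ob/ob-Veh, and Rbp7, Flt1 and Mmp12, and Cd209f, Plxna4 and Slc5a3, for Rosi. The Mmp12 difference turned to -0.47 without ob/ob-Veh replicate 1. Without that library 1 and 15 genes were called in iWAT, by DESeq2 18 and 27, and by total UMIs 139 and 222.

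Few genes were called between the depots, which does not show that the others were alike. Over the 3 labels, 16 of 7589 genes were called between iWAT and eWAT (0.211%). The stromal progenitor gene Pi16 was higher in iWAT (2.67 ± 0.27 (adjusted p = 2.13e-05)), as was the lectin gene Cd209d (2.01 ± 0.31 (adjusted p = 0.00349)), and the protease inhibitor gene Slpi (-5.48 ± 0.69 (adjusted p = 0.00058)) and Mgp (-3.73 ± 0.38 (adjusted p = 2.13e-05)) were higher in eWAT. Pi16 and Mgp belong to the stromal list and Slpi to the mesothelial list. The part of stray RNA in these differences was not tested. For Cd209d the iWAT levels were 59.3 and 39.6, 106 and 113 and 27.5 and 25.01 CPM, against 7.46 and 0, 40.7 and 38.2 and 7.67 and 10.6 in eWAT. The difference between depots of the ob/ob-Veh change was called for 8 genes (0.105%) and that of the Rosi change for 21 (0.277%), among them Ccl24. Its Rosi change was -3.02 in eWAT, while the iWAT libraries held 136 and 84.4 CPM under ob/ob-Veh and 256 and 165 under ob/ob-Rosi. DESeq2 called 48 and 163 in place of 8 and 21, and total UMIs gave 7 and 2. Without iWAT ob/ob-Veh replicate 1 the counts of 16, 8 and 21 were 7, 2 and 0, and without iWAT WT-Veh replicate 1 they were 29, 99 and 181.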

How the data were processed

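The study digested 300 mg of each fat pad with collagenase and sequenced the SVF on the 10x Genomics 3-prime platform. For every library the authors deposited a matrix of raw UMI counts, made with Cell Ranger 3.0.2 (bcl2fastq 2.19.1.403, mm10), without normalization, pooling, doublet removal or correction for free RNA. The iWAT matrices reach at most 21957 UMIs and 24.98% mitochondrial UMIs per barcode and the eWAT matrices 149572 and 98.3%, so the iWAT files hold no barcode past the upper limits of the rule, which were applied to both depots. The members, the 34 gene lists and the tests were chosen with earlier results of these data known. Counts were summed over the members of each library and 1 quasi-likelihood model per depot, over its 6 libraries, was fitted in R 4.3.3 using edgeR 4.0.16 (TMM, filterByExpr, no replicate block), with DESeq2 1.42.0 as an alternative. Libraries with fewer than 20 members would have left a fit. Endothelial cells were those with at least 2 UMIs of Pecam1 and Cdh5 and none of Adgre1 and Csf1r. Named genes were the 5 largest called changes per direction with at least 50 CPM in the higher group and no overlap (3 for differences of effects), up to 4 of the most abundant genes of each list, the rule and marker genes, and close copies. Called list members beyond these were chosen after their values were seen. The alternatives were other scalings, count filters, gates and left-out libraries. Doublets were kept and no doublet caller was run. The labels number the libraries of a depot as biological replicates, without naming mice or saying whether a mouse gave both depots. Python 3.11.15, numpy 2.4.6, pandas 2.3.3 and scipy 1.17.1 were used. On data simulated from the eWAT sums (6175 genes), 73.6% of genes changed 4-fold and 21.3% changed 2-fold were called, and 6 of 5990 unchanged genes. For iWAT (6832 genes) these were 34.8%, 1.1% and 0 of 6646. Gene positions are those of the GENCODE annotation of GRCm38.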

Additional observations from a re-analysis of the deposited data

Results flagged for a closer look

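The changes between labels differed between the Ear2/Ccr2 macrophages and the Lyve1/Cd163 macrophages for 27 genes (genotype comparison) and 26 genes (Rosi comparison) in eWAT, and for 80 and 103 genes in iWAT, by the test of the difference itself in edgeR.

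The ob/ob-Veh change over WT-Veh differed between iWAT and eWAT for 8 genes (48 by DESeq2). The difference on the log2 scale, iWAT minus eWAT, was 5.68 for Lum, 4.13 for Col1a2 and 3.45 for Serpinf1, all stromal genes, and -10.5 for Rbp7, -6.31 for Mgll and -5.83 for Adgrf5. For ob/ob-Rosi against ob/ob-Veh it differed for 21 genes (163 by DESeq2 and 2 by total UMIs), with 11.85 for Arg1, 9.67 for Rbp7 and 7.56 for Ccl17, and -4.1 for Ms4a7, -3.69 for Col6a3 and -3.04 for Col1a2. Rbp7 and Arg1 held 0 UMIs in both iWAT ob/ob-Veh libraries, so their fitted sizes depend on the prior count and are no bound. Endothelial cells of iWAT held 234 and 121, 637 and 445 and 140.4 and 210.3 CPM of Col1a2 by label (WT-Veh, then ob/ob-Veh, then ob/ob-Rosi), and the Ear2/Ccr2 macrophages 98.8 and 42.9, 902 and 549 and 117 and 97.1. The part of stray stromal RNA was not tested.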

How the results depend on the processing

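With 2 libraries per group, leaving out a library moved every count. The counts ranged from 35 to 214 (eWAT, genotype), 53 to 494 (Rosi) and 0 to 9 (ob/ob-Rosi over WT-Veh), and in iWAT from 0 to 1484 (the highest without WT-Veh replicate 1), 10 to 2005 and 0 to 118. For the differences between macrophage classes they were 4 to 80 and 15 to 78 in eWAT and 1 to 249 and 15 to 316 in iWAT, for the depots 7 to 58, and for the differences between depots 2 to 99 and 0 to 181. A group left with 1 library took its spread from the others. The log2 share ratios ranged in eWAT from 1.40 to 1.73, -1.30 to -0.57 and 0.27 to 1.00 and in iWAT from -0.49 to 2.10, 0.093 to 0.77 and -0.10 to 2.49, and the first iWAT ratio was -0.09 without ob/ob-Veh replicate 1, -0.49 without WT-Veh replicate 1, and the last was -0.10 without WT-Veh replicate 1.

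In the same order DESeq2 called 93, 168 and 1 genes in eWAT, and 666 and 2 in the last comparisons of iWAT. For the class differences it called 17 (eWAT, ob/ob-Veh), 18 and 27 (iWAT), and for the depot differences 48 and 163. Total UMIs in place of TMM gave 80 (eWAT, ob/ob-Veh), 139 and 222 (iWAT classes), 9 (depots) and 2 (depot difference with Rosi). Without a filter on low counts 290, 426 and 9 genes were called in eWAT and 759 and 40 in the first and last iWAT comparisons. With Ear2 and Ccr2 at 1 UMI or more the eWAT counts were 93 and 153 and the first share ratio 1.26. At 3 or more they were 1 (ob/ob-Rosi against WT-Veh), 17 (class difference), 3 (depot difference) and a ratio of 2.00. Without possible dendritic cells the eWAT counts were 51 and 172 and the ratio 1.32. Cells with Ccr2 alone gave 9 and 21 in eWAT and 569, 670 and 29 in iWAT, and cells with Ear2 alone could be fitted only for iWAT ob/ob-Rosi against WT-Veh (2 genes). Members of 2000 UMIs or more, chosen after seeing the data, gave 71 in eWAT and 178 in iWAT for ob/ob-Veh. Without possible doublets iWAT gave 26 and 315, and the share ratios were 1.08 and -0.38 in eWAT and -0.84 and 1.04 in iWAT. Per cell with Adgre1 or Csf1r, the eWAT ratios were 2.13 and -1.49. Among named genes 6 values changed sign: Hbb-bs (eWAT, Rosi) was 0.063 with Ear2 and Ccr2 at 1 or more, Cxcl9 (eWAT) ranged from -5.46 to 0.12 (without WT-Veh replicate 2) on leaving out a library, Cd209a (iWAT) -0.086 among cells with Ccr2 alone, and in the iWAT class differences Mmp12 ranged from -3.89 to 1.33 and, with Rosi, -0.47 to 4.72 (1.33 and -0.47 without ob/ob-Veh replicate 1), and Slc40a1 from -8.02 to 2.50 (without ob/ob-Veh replicate 2). The cause was not tested.

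The replicate number as a block gave 617 and 1 genes in iWAT (genotype, and ob/ob-Rosi over WT-Veh), 62 and 63 for the eWAT class differences and 15 and 67 for the depot differences. The other counts stayed within 1.5 times. Same-numbered libraries deviated together only in part (correlations of 0.17, 0.07 and -0.06 in eWAT and -0.02, 0.36 and -0.03 in iWAT). The labels name no shared litter, batch or day, and the study reports a single batch for the processing and sequencing of all samples. No pairing was taken from the numbers, and the correlations do not settle whether one exists.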
